A study of Mus musculus with 2031 samples.

Results

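Transcripts of 9 genes, namely Nrxn2, Nlgn1, Nlgn2, Nlgn3, Slitrk2, Lrtm2, Unc13c, Ntm and Lsamp, were followed across the astrocytes of the adult mouse cortex (CX) and hippocampus (HP). The genes were taken by name from the 49671 genes counted in every cell, and all 9 were found. Lrtm2, Slitrk2 and Unc13c entered the set because the study listed them as markers of the astrocyte subtype AST2, Lrtm2 also of AST3, while Lsamp and Ntm came from its list of genes common to the subtypes, so that these 5 were chosen by their measured levels in subtypes of the same cells. Their levels between subtypes are therefore given as a description, with no test. Unc13c encodes Munc13-3, a protein that readies vesicles for release, and not an adhesion molecule, so that the set holds 8 adhesion genes and 1 gene of exocytosis.

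Astrocyte processes wrap synapses, and contact between the membranes is made by adhesion proteins on either side of the cleft. Neurexins, best known on the presynaptic side, bind neuroligins, and neuroligins of astrocytes are known to bind neuronal neurexins and to influence astrocyte shape. Slitrk proteins carry leucine-rich repeats and bind presynaptic receptor phosphatases of the PTPRD and PTPRS kind, and the IgLON proteins Lsamp and Ntm are lipid-anchored immunoglobulin-domain proteins that guide neurite growth and bind each other across membranes.

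Cells came from C57BL/6J mice at postnatal day 56 with no treatment or transgene. The 2 cortical suspensions, 1C and 2C, were each made from a single animal of litter 1, and the 2 hippocampal suspensions, 1H and 2H, were each pooled from several littermates of litters 2 and 3, so that region, litter and pooling cannot be told apart. Live cells that bound the ACSA-2 antibody, which recognises the product of Atp1b2, and lacked the oligodendrocyte antigen O1 were sorted singly into 32 plates and sequenced by Smart-seq2, a full-length method without molecular identifiers. Each cell had a library of its own.

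Of 2031 cells, 2030 were read here. The study's cell types placed 1781 of them among 5 astrocyte subtypes, the largest being AST1 with 657 cells, AST2 with 555 and AST3 with 452, followed by AST4 with 91 and AST5 with 26. These are fewer than the astrocytes the paper reports. A further 33 cells, all of 1C, were not in the study's list of types and 15 had no type, and both groups were left out. Of the 33 cells, 87.9% had a count of Slitrk2 and 87.9% of Lsamp. Whether they include astrocytes was not tested, and the values of 1C leave them out. Astrocytes had a median of 1469310 counts, and cells of all types ranged from 600758 to 3238215. The summed level of 8 astrocyte markers lay between 28325 and 31257 CPM (counts scaled to a common total of 1e+06 per sum) in the astrocytes of the 4 suspensions, that of 10 neuronal markers was at most 37.2 CPM, and that of 6 endothelial markers between 0.4 and 2.3 CPM. AST2 was almost wholly cortical, with 10 cells in 1H and 22 in 2H, and AST4 almost wholly hippocampal, with 2 cells in 1C and none in 2C. AST5 stood apart from the other subtypes, since a median of 1.59% of its reads fell outside exons, against 10.66% to 13.96% in AST1 to AST4, and its 7 oligodendrocyte markers summed to between 299.5 and 1951 CPM in a suspension, against 450 to 499 CPM over all astrocytes of each. The share of AST5 cells with a member is given below with that in mind, and their part in it was not tested.

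The order of levels across genes was read per kilobase of exon, as CPM per kb, and separately in each area. In cortex Lrtm2 stood highest at 61.5 ± 1.32 CPM per kb (mean ± SD of 2 suspensions, as for all values here), above Lsamp at 44.6 ± 0.758 and Slitrk2 at 44.4 ± 1.33, which did not differ beyond their spread. In hippocampus Lsamp was highest at 54.2 ± 0.317, above Lrtm2 at 38.2 ± 1.25 and Slitrk2 at 37.5 ± 0.773, whose suspensions overlapped. The gene at the top was thus not the same in the 2 areas. Ntm followed with 24.3 ± 1.78 in cortex and 22.7 ± 2.22 in hippocampus, and Nlgn3 with 15.9 ± 2.87 and 14.6 ± 2.35. In cortex Unc13c, at 5.55 ± 2.39, and Nlgn1, at 3.96 ± 0.568, overlapped, and Nlgn2, at 0.969 ± 0.0177, and Nrxn2, at 0.663 ± 0.173, closed the order. In hippocampus Nlgn1, at 7.57 ± 1.80, was followed by Nlgn2, at 1.12 ± 0.453, and Nrxn2, at 0.769 ± 0.0194, whose difference was within the SD of Nlgn2 although the suspensions did not overlap, and Unc13c was last at 0.592 ± 0.112. The Nlgn3 value rests on exons that share 3823 of 9271 bases with Gm21986, a transcript on the same strand. Exon bases were read from a later GENCODE release than the authors counted with, and whether these were shared in theirs was not checked. Reads that fit more than 1 gene were left uncounted. Over the unshared bases alone Nlgn3 came to 26.1 CPM per kb from the pooled counts, against 15.4 over all its bases. Its place below Ntm thus depends on the bases it is divided by.

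Unc13c (chr9:73479422-73968966, minus strand, GRCm38), the vesicle-priming gene, was the member with the widest difference between brain areas on the log2 scale. Its hippocampus minus cortex value was −3.21 over all astrocytes. It was chosen as a marker of AST2, an almost wholly cortical subtype, so nothing is read from that rank. Promoter windows of 300 bases from RefSeq (GRCm38.p6), running from 250 bases before to 50 after an annotated start, are shown for Unc13c and for Slitrk2 and Lrtm2, the pair of members whose levels ran most alike over the subtypes. They are written 5′ to 3′ on the strand of the gene, with each CpG dinucleotide in capitals. Slitrk2 lies at chrX:66649318-66661393 on the plus strand, with the window shown at chrX:66649068-66649367. Lrtm2 lies at chr6:119315133-119330766 on the minus strand, with the window shown at chr6:119330717-119331016. The Unc13c window is chr9:73968988-73969287. Slitrk2 and Lrtm2 each had a second window further downstream, at chrX:66652909-66653208 and chr6:119329155-119329454, and the one shown is the more upstream.

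Slitrk2: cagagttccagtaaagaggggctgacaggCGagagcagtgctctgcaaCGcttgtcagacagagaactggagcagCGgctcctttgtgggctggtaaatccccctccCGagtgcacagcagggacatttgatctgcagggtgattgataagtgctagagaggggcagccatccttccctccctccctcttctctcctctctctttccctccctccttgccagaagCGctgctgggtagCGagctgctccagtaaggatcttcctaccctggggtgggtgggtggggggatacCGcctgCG
Lrtm2: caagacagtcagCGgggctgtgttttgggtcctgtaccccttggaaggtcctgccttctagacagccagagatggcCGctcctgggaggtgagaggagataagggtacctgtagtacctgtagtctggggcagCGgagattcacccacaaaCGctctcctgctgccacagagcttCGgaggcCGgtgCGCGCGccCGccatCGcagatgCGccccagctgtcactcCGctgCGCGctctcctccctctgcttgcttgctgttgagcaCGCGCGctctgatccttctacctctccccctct
Unc13c: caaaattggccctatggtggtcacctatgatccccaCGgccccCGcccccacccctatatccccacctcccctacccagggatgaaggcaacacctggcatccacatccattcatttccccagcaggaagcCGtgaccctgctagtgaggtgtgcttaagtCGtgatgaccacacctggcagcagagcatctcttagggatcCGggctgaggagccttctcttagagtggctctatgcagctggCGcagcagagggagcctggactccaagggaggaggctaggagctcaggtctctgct

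The Lrtm2 window shown held 18 CpG, that of Slitrk2 8 and that of Unc13c 6, against a median of 7 over 32851 windows of the same length in 27025 genes. In the second windows the order was opposite, with 6 CpG for Lrtm2 and 17 for Slitrk2. Windows were present for 7 of the 9 members, 12 windows in all. Nrxn2 and Nlgn3 had none. The Nlgn2 window was the richest among them, with 26 CpG and 68.7% GC, against a median of 52.7% GC over all windows. The motif TATAAA, searched on both strands, was found in none of the 12 windows and in 13.6% of all windows. ACAAAG occurred in 3 of the 12, among them the Slitrk2 window above, and in 18.7% of all windows. These matches describe letters and not binding.

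**Figure D1:**
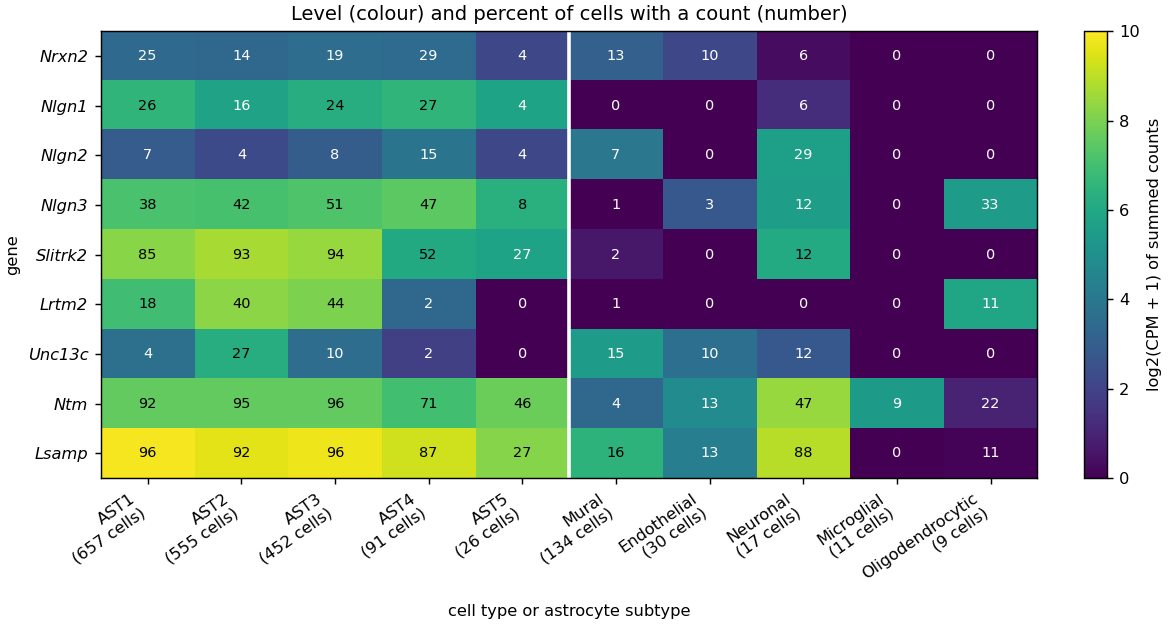
Level of each gene as log2(CPM + 1) of summed counts (colour) and percent of cells with a count (number) in the 5 astrocyte subtypes, left of the white line, and the other cell types of the study, right of it. Lsamp and Ntm had a count in 71.4% or more of the cells of AST1 to AST4, whereas Lrtm2 was at 2.20% in AST4 and Unc13c was seen most often in AST2.

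Nrxn2 (chr19:6418731-6544169, plus strand), a neurexin, had a count in 20.3% ± 3.70 of astrocytes (mean ± SD over 4 suspensions). Each cell gave few reads, with a median of 18.1 CPM in the cells with a count. The summed level was 10.8 CPM in 1C, 7.46 in 2C, 10.8 in 1H and 10.4 in 2H, so that the regions overlapped. For comparison, 11.4% of 175 mural, endothelial and microglial cells had a count. After each cell was thinned to 50000 counts the shares were 6.86% there and 11.1% in astrocytes. The median depth was 1247500 counts in those cells and 1469310 in astrocytes. Nrxn3, which also encodes a neurexin, had a count in 1.63% of astrocytes.

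Nlgn3 (chrX:101299168-101325963, plus strand), the neuroligin with the highest level here, was counted in 42.1% ± 4.11 of astrocytes. It gave 128.5 CPM in 1C, 166.1 in 2C, 151.1 in 1H and 120.3 in 2H, and the regions overlapped. AST4 gave 181.4 CPM in 1H and 179.2 in 2H, above AST1 of the same suspensions by 0.27 and 0.55 on the log2(CPM + 1) scale. AST1 and AST3 had no fixed order, with AST1 higher in 3 of the 4 suspensions and lower by 0.58 in 1C. The 2 hippocampal AST2 sums, of 10 and 22 cells, were lower at 3.05 and 46.4 CPM, against 138.7 and 144.1 CPM in cortical AST2. Outside astrocytes Nlgn3 was found in 3 of 9 oligodendrocytic cells, at 44.8 CPM, in 2 of 17 neurons, at 47.2 CPM, in 1 of 30 endothelial cells, in 0.746% of mural cells and in none of 11 microglial cells.

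Nlgn1 (chr3:25426215-26332460, minus strand), best known at excitatory synapses, was seen in 22.4% ± 5.93 of astrocytes, whereas none of the 175 mural, endothelial and microglial cells showed it. In the mural cells alone a count of 0 allows a share of up to 2.24%. Levels were 58.5 CPM in 1C, 47.7 in 2C, 84.4 in 1H and 118.7 in 2H, so that both hippocampal suspensions lay above both cortical ones. Subtypes took no fixed order within suspensions. AST2 was above AST1 in 3 of the 4, by 0.38 in 1C, 0.04 in 2C and 0.30 in 2H on the log2(CPM + 1) scale, and AST1 was above AST3 in 2 of the 4. Its exons share 1229 bases with A830092H15Rik, an antisense gene with no count in any astrocyte. As the reads carry no strand, reads in shared bases would fit both genes and be left uncounted if strand was ignored in counting. That setting, and the overlap in the authors' own annotation release, were not checked. This also holds for the 889 exon bases that Nrxn2 shares with Gm14964 and Slc22a12. Over its unshared bases alone Nlgn1 came to 6.14 CPM per kb from the pooled counts, against 5.57 over all its bases.

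Nlgn2 (chr11:69823122-69837784, minus strand), best known at inhibitory synapses, was rare. A count was found in 6.71% ± 0.612 of astrocytes, against 5.71% of the 175 cells of the other types, and after thinning 5.05% against 4.00%, so that its share in astrocytes was close to the background. The suspensions gave 5.68, 5.53, 8.35 and 4.64 CPM in the order 1C, 2C, 1H and 2H. AST4 had the highest share of the subtypes, 14 of 91 cells. In neurons 5 of 17 cells had a count, at 49.3 CPM.

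Within single cells Nlgn3 was counted in 42.5% of astrocytes with Nlgn1 and in 42.4% of those without. No neuroligin was counted in 748 astrocytes, a single member in 809, a pair in 12.02% of them and all 3 in 10 cells. Pooled over suspensions, which the subtypes drew on unequally, the share of cells with at least 1 neuroligin was 70.3% in AST4, 66.2% in AST3, 57.4% in AST1, 52.1% in AST2 and 15.4% in AST5. AST3 cells were also the most deeply sequenced, with a median of 1659870 counts against 1431480 in AST1 and 1405690 in AST4. The median number of genes with a count was 2562 in AST4, 2440.5 in AST3, 2077 in AST2, 1992 in AST1 and 1674.5 in AST5. The part of depth and of gene number in these shares was not tested. A missing count in a single cell at this depth does not show that the transcript was absent.

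Slitrk2, a leucine-rich repeat protein, was counted in 87.2% ± 4.97 of astrocytes and in 1.71% of the 175 mural, endothelial and microglial cells. Its level was 351.2 CPM in 1C, 366.4 in 2C, 307.7 in 1H and 298.9 in 2H, and the regions did not overlap. Over subtypes the mean of the suspension sums was 303.5 ± 54.5 CPM in AST1, 419.4 ± 33.6 in AST2 and 371.3 ± 74.02 in AST3 (SD, n = 4 each). AST4 was lower, with 95.7 CPM in 1H and 42.6 in 2H, 1.70 and 2.73 below AST1 of the same suspension on the log2(CPM + 1) scale. In AST4 21 of 41 cells in 1H and 25 of 48 in 2H still had a count. The other Slitrk genes were low in astrocytes, with Slitrk5 at 17.7 CPM in 5.22% of cells and Slitrk1, Slitrk3, Slitrk4 and Slitrk6 at 1.44 CPM or less.

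Lrtm2, another leucine-rich repeat membrane protein, was uneven over cells. It had a count in 29.9% ± 8.21 of astrocytes, yet the cells with a count held a median of 634 CPM, against 191 CPM for Slitrk2. Of the 542 cells with a count, 479 were above 100 CPM. In 175 mural, endothelial and microglial cells the share was 0.571%. The level was 256.2 CPM in 1C, 248.5 in 2C, 160.5 in 1H and 153.2 in 2H, with no overlap of the regions. Pooled by subtype, AST2 gave 304.1 CPM, AST3 262.8, AST1 122.7, AST4 9.12 and AST5 no count. AST2 was above AST3 in cortex alone, by 0.68 (1C) and 0.36 (2C) on the log2(CPM + 1) scale, whereas AST3 was the higher in hippocampus, with 435.4 against 159.7 CPM in 1H and 320.9 against 299.1 in 2H. AST1 was below AST3 in all 4 suspensions, by 0.49 (1C), 0.38 (2C), 1.92 (1H) and 1.44 (2H) on the log2(CPM + 1) scale. In AST4 2 of 41 cells in 1H had a count and 0 of 48 in 2H, which allows a share of up to 6.25%. Lrtm2 lies within Cacna2d4, a gene on the opposite strand with which it shares no exon bases and which had a count in 12 astrocytes. Its paralog Lrtm1 was near 0, with a count in 0.225% of astrocytes.

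**Figure D2:**
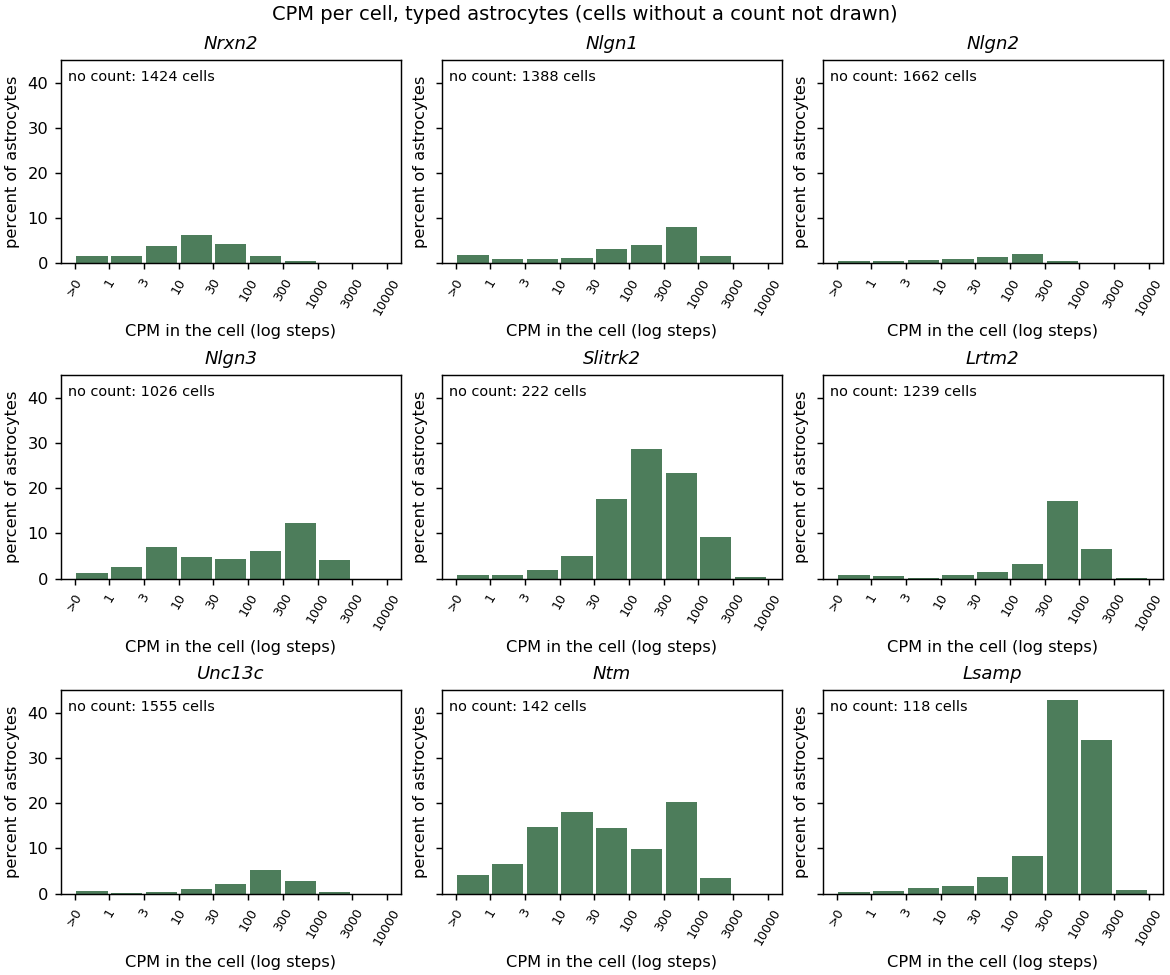
Percent of the 1781 astrocytes (vertical axis) in each step of CPM in the cell (horizontal axis, log steps), 1 panel per gene, with the number of cells without a count written in the panel. Lsamp formed a single high peak, Lrtm2 a high peak beside 1239 cells with no count, and Ntm a broad span in which 455 cells held 10 CPM or less.

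The 9 genes thus differed in how their reads were spread over cells. The tenth of astrocytes with the highest level held 27.2% of the summed CPM of Lsamp, 44.8% of that of Slitrk2, 50.1% of Ntm, 58.9% of Lrtm2, 69.98% of Nlgn3, 87.4% of Nlgn1, 92.8% of Nrxn2, 98.5% of Unc13c and 100% of Nlgn2. For rare genes this measure is bound by how few cells had a count. A share of 6.68% of astrocytes with a count fixes the 100% of Nlgn2, and 12.7% leaves Unc13c little room. A median of 4 of the 9 genes was counted per astrocyte. No cell had all 9, and 7 cells had none.

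Unc13c was counted in 18.0% of the astrocytes of 1C, 22.6% of those of 2C, 3.82% in 1H and 3.50% in 2H. Levels were 33.9 CPM in 1C, 63.7 in 2C, 5.90 in 1H and 4.51 in 2H, and the regions did not overlap. The 33 cells of 1C outside the study's list, left out of these values, had a count in 30.3%, at 91.9 CPM. Single plates showed the same order. Among plates with 20 or more astrocytes, 11.7% to 28.8% of the cells of a cortical plate had a count, against 1.64% to 7.41% of a hippocampal plate. Over both areas 12.7% of astrocytes had a count, against 13.1% of the 175 mural, endothelial and microglial cells, but most of the latter were hippocampal and the areas went opposite ways. In hippocampus 3.65% of astrocytes had a count, below the mural cells with 10 of 48 in 1H and 6 of 47 in 2H, and in 1H the mural level of 76.3 CPM exceeded the 5.90 CPM of the astrocytes. In cortex, where 20.4% of astrocytes had a count, the mural level lay below that of the astrocytes, with 7.54 CPM from 4 of 27 cells in 1C and no count in 12 cells of 2C, which allows a share of up to 25%.

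In cortical AST2 26.3% of cells in 1C (63 cells, Wilson 95% interval 21.1% to 32.2%) and 31.4% in 2C (89 cells, 26.3% to 37.1%) had a count of Unc13c, at 57.01 and 94.7 CPM. In hippocampal AST2 none of 10 cells (1H) and none of 22 (2H) had a count, which allows shares of up to 30% and 13.6%. The 1H limit lies between the cortical shares, and the 2H limit below both. These intervals and limits cover counting error only. AST3 showed 12.7 and 16.5 CPM in cortex and 2.16 and 3.35 CPM in hippocampus. In AST1 the value of 67.9 CPM in 2C came from 5 of 55 cells and that of 10.1 CPM in 1C from 2 of 57, against 8.03 and 5.12 CPM in 1H and 2H. Of its family, Unc13a was at 5.29 CPM, Unc13b at 14.7 and Unc13d at 0.775 over the astrocytes.

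Ntm (chr9:28994750-29963141, minus strand), or neurotrimin, was widespread but shallow in many cells. A count was found in 91.9% ± 2.31 of astrocytes, which fell to 61.99% after thinning. The level was 206.6 CPM in 1C, 186.3 in 2C, 195.9 in 1H and 170.5 in 2H, with overlapping regions. AST1, AST2 and AST3 were alike at 195.3 ± 42.8, 190.5 ± 23.8 and 188.6 ± 11.7 CPM (SD, n = 4 each), and AST4 stood at 116.4 and 136.2 CPM in 1H and 2H. Of cells with a count, 455 had at most 10 CPM and 603 more than 100 CPM. In neurons 8 of 17 cells had a count, at 348.5 CPM.

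Lsamp (chr16:39984361-42181679, plus strand), the limbic system-associated membrane protein, had the highest CPM of the set and a count in 93.5% ± 2.19 of astrocytes, against 14.9% of the 175 mural, endothelial and microglial cells. It measured 758 CPM in 1C, 777 in 2C, 928 in 1H and 936 in 2H, so that both hippocampal suspensions exceeded both cortical ones. By subtype it was 916 ± 45.2 CPM in AST1, 830 ± 78.2 in AST2 and 922 ± 204.6 in AST3 (SD, n = 4 each). AST4 gave 622 and 636 CPM in 1H and 2H. In neurons 15 of 17 cells had a count, at 479 CPM. Of the other IgLON genes, Negr1 was at 39.2 CPM, Opcml at 0.976 and Iglon5 at 0.485 CPM in astrocytes.

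**Figure D3:**
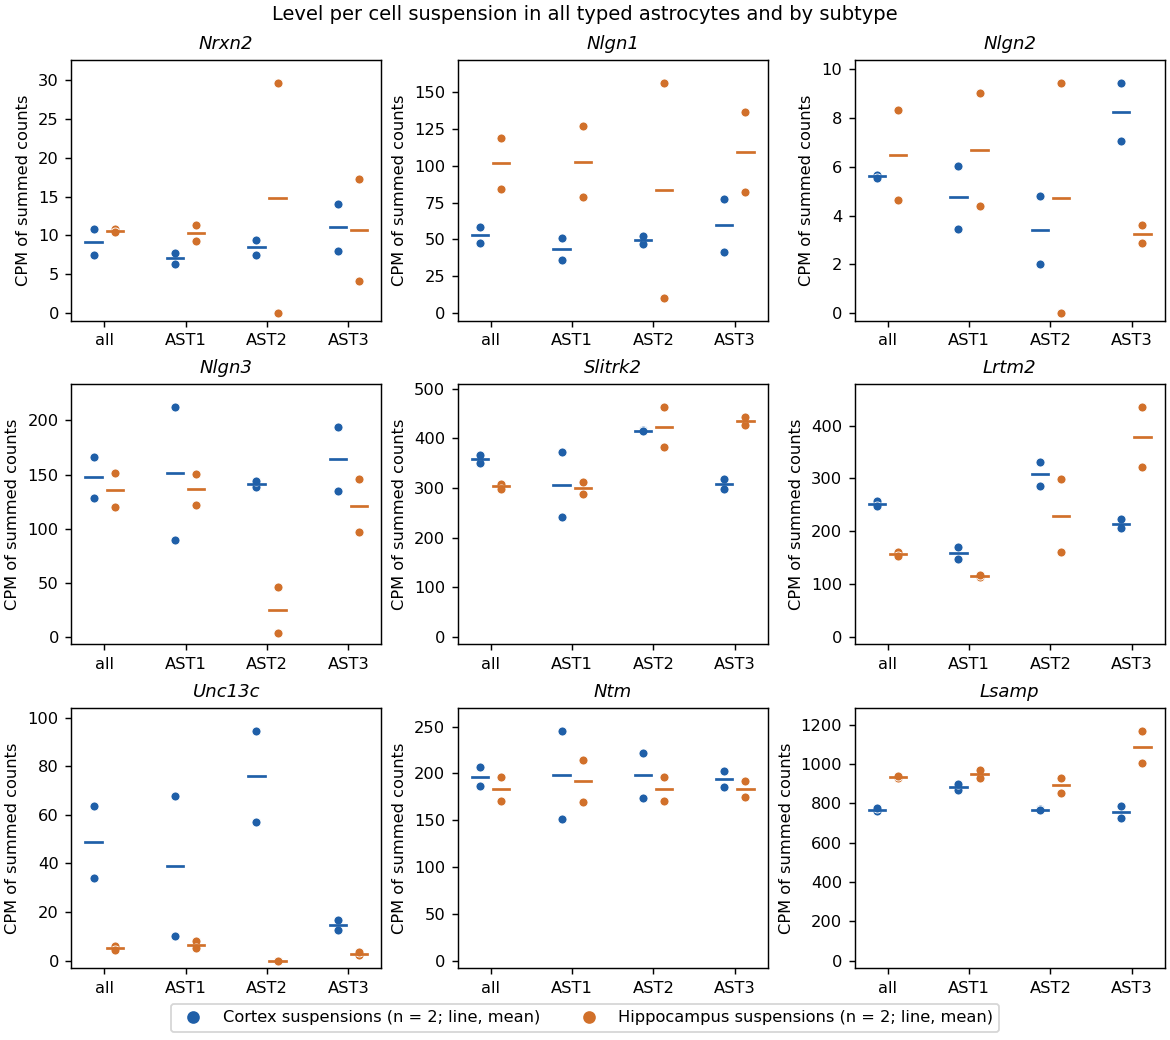
CPM of the summed counts (vertical axis) in each cortical (blue) and hippocampal (orange) suspension for all typed astrocytes and for AST1, AST2 and AST3, with a line at the mean of 2 suspensions. For Unc13c all cortical points of the AST2 column lie at 57.01 CPM or above and both hippocampal ones at 0, from 10 and 22 cells.

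The comparison of hippocampus with cortex asked whether the same genes are used by astrocytes of both areas. It was made on counts summed over the cells of each suspension, with edgeR's quasi-likelihood test and Benjamini-Hochberg adjustment over all genes tested. Animals differed between the groups, 2 suspensions stood against 2, and an exact permutation test of a single value cannot go below p = 0.333 at that size. Over all astrocytes edgeR called 0 of 19160 genes at an adjusted p under 0.05 (0% called), 2609 at an unadjusted p under 0.05 (13.6%) and DESeq2 1858 (9.7%), while the 2 regions did not overlap for 8815 genes (46%). None of the 9 members was called by edgeR. At an unadjusted p under 0.05 there were 5 of them, the regions did not overlap for 5, and DESeq2 counted 4 as changed. With each cell thinned to 50000 counts 2 were called (1.46% of all genes), and with limma on mean log2(CPM + 1) over cells 3 (2.64%). Because Slitrk2, Lrtm2 and Unc13c were chosen as markers of subtypes that differ in number between the areas, nothing is read from their part in these counts.

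Nlgn1 was higher in hippocampus by 0.96 ± 0.23 on the log2 scale (SE, edgeR adjusted p = 0.238). Lsamp was higher by 0.31 ± 0.05 (adjusted p = 0.214). Neither passed the test, although the suspensions did not overlap for either gene, and DESeq2 called both. Nrxn2 (0.24 ± 0.31), Nlgn2 (0.24 ± 0.44), Nlgn3 (−0.10 ± 0.20) and Ntm (−0.08 ± 0.11) had values within 1 SE of 0, and those of Nlgn2, Nlgn3 and Ntm changed sign when a suspension was left out. As description, the hippocampus minus cortex values of the 3 subtype markers were −0.22 for Slitrk2, −0.66 for Lrtm2 and −3.21 for Unc13c. The median over all genes tested was 0.01. In a sum over all astrocytes, fewer cells of a subtype and less RNA per cell cannot be told apart.

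Within AST1, with at least 55 cells in each suspension, edgeR called 0 of 15521 genes (0% called), 2023 had an unadjusted p under 0.05 (13%), DESeq2 called 2711 (17.5%) and 42.6% did not overlap. Among the members 5 did not overlap, 1 was at an unadjusted p under 0.05 and 2 passed in DESeq2. Nlgn1 measured 35.9 CPM in 1C, 50.9 in 2C, 78.7 in 1H and 126.8 in 2H, a difference of 1.27 ± 0.39 (edgeR adjusted p = 0.305). Lrtm2 measured 146.8 and 170.5 CPM in cortex and 113.9 and 117.3 CPM in hippocampus, a difference of −0.43 ± 0.19 (adjusted p = 0.539). DESeq2 called these 2 genes. Slitrk2 overlapped, with 241.2 and 372.2 CPM in cortex, 312.4 and 288.3 CPM in hippocampus and a difference of 0.00 ± 0.27.

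Within AST3, with at least 65 cells in each suspension, edgeR called 0 of 14960 genes (0% called), 1547 had an unadjusted p under 0.05 (10.3%), DESeq2 called 2067 (13.8%) and 41.3% did not overlap. Among the members 6 did not overlap, 3 were at an unadjusted p under 0.05 and 4 passed in DESeq2. Limma called none of the members and 0.00668% of all genes. Slitrk2 was at 318.2 and 297.6 CPM in cortex and 427 and 443 CPM in hippocampus, a difference of 0.55 ± 0.11 (edgeR adjusted p = 0.380). Lrtm2 was at 206.3 and 222.3 CPM in cortex and 435.4 and 320.9 CPM in hippocampus, a difference of 0.87 ± 0.19 (adjusted p = 0.380). Lsamp was at 724 and 787 CPM in cortex and 1169 and 1007 CPM in hippocampus, a difference of 0.58 ± 0.11 (adjusted p = 0.380). All 3 had hippocampal suspensions above cortical ones without passing the test, and DESeq2 called them together with Unc13c, whose difference was −2.35 ± 0.86 (edgeR adjusted p = 0.483). For Lrtm2 the sign was thus opposite in AST1 and AST3, and this difference between the subtypes was not tested.

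Wider lists of adhesion genes held 92 genes with the members and the Unc13 family, of which 73 could be tested over all astrocytes. EdgeR called 0 of the 73 in either direction, with 19 at an unadjusted p under 0.05 and 17 by DESeq2, larger shares than the 13.6% and 9.7% of all genes. Without the members these were 14 and 13 of 64. The lists were chosen with earlier results of these data known, and the genes tested were not matched to them for level. Nothing is therefore read from the larger shares, here or within AST3. The median difference was 0.22, against 0.01 over all genes tested. The presynaptic receptors to which Slitrk proteins bind differed in how often they were counted, with Ptprs at 89.6 CPM in 38.97% of astrocytes, and in 79.1% of AST4 cells, and Ptprd at 19.6 CPM in 8.20% of astrocytes. Of the other partners, Dag1, which encodes dystroglycan, reached 358.2 CPM, and the neuroligin-binding Mdga2 52.4 CPM. The cerebellins Cbln1, Cbln2 and Cbln4 had no count in any of the 1781 astrocytes. Hepacam, a glial adhesion gene, had 1180 CPM and Cadm1 922 CPM over the astrocytes, although Cadm1 was below Lsamp in both hippocampal suspensions, at 794 CPM in 1H and 744 in 2H. Within AST1 edgeR called 0 of 64 list genes tested, with 8 at an unadjusted p under 0.05 and 11 by DESeq2, close to the 13% and 17.5% of all genes. Within AST3 it called 0 of 64, with 13 and 17, against 10.3% and 13.8% of all genes.

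**Figure D4:**
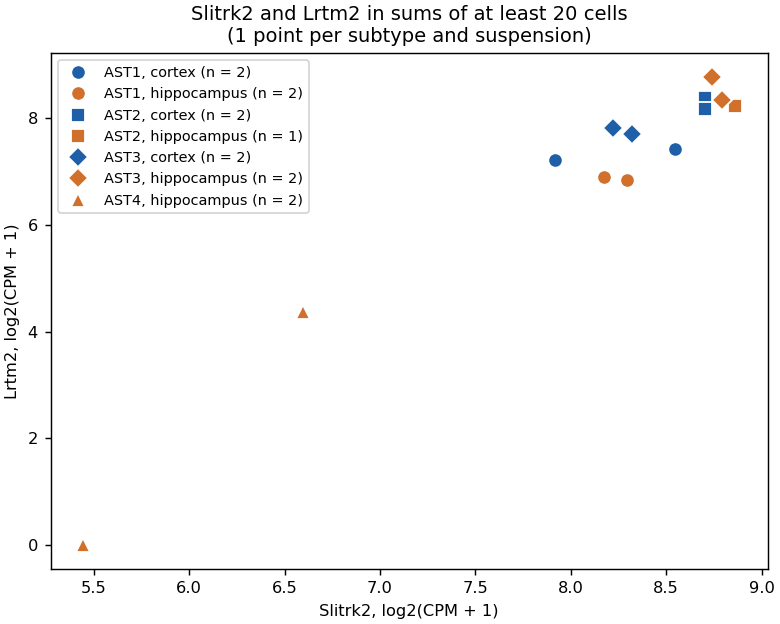
Lrtm2 against Slitrk2 in 13 sums of at least 20 cells, 1 point per subtype and suspension, both axes as log2(CPM + 1), with subtypes by shape and areas by colour. The 2 AST4 sums lie far below the other 11, and the 3 highest Lrtm2 values other than cortical AST2 belong to hippocampal AST3 and AST2.

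The members' levels were set side by side over 13 sums of AST1 to AST4 with at least 20 cells. Slitrk2 and Lrtm2 ran most alike of the 36 pairs, with Pearson's r = 0.974, and r = 0.796 over the 11 sums without AST4. The sums share suspensions and depth and are not independent, so these values are a description. Slitrk2 and Lrtm2 were also both chosen as AST2 markers, so that a like pattern over subtypes was in part set by that choice. Cell by cell the same pair was hardly related, with a mean Spearman rho of 0.09 (0.01 to 0.17 in the 4 suspensions, on thinned counts), and all 36 pairs had means between −0.03 and 0.09. Among 2567 genes with a count in over 25% of astrocytes, those most like Slitrk2 were Gabra2 (r = 0.984), Sema6d (0.982) and Ghr (0.977), and those most like Lrtm2 were Slitrk2, Tlcd1 (0.973) and Cyp4f14 (0.973), again over sums in which AST4 stands apart. Without AST4 these fell to 0.832 for Gabra2 and 0.491 for Cyp4f14.

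Unc13c ran most like Atp1b1 (r = 0.899), Tom1l1 (0.895) and Bcl6 (0.866). For Lsamp the nearest genes were Pla2g7 (0.945), Marc2 (0.913) and Cd38 (0.896), and for Ntm they were Arhgap26 (0.874), Dbndd2 (0.867) and P4ha1 (0.866). The genes nearest to Nlgn3 were Gm3571, Coro1b and Tbcb (0.913 to 0.919). Those nearest to Nlgn1 were Os9, Mcmbp and Hnrnph2 (0.742 to 0.820), and to Nlgn2 Psma2, Emp2 and Sri (0.756 to 0.831). Nrxn2 was nearest to H2afj, Psmd2 and Neat1 (0.804 to 0.829). The level of Nlgn2 and Nrxn2 rested on few reads, so that their neighbours describe sums with little signal. For every member the neighbours are the 3 highest of 2567 or 2568 genes over 13 sums. Whether unrelated genes would reach such values was not tested, so no likeness is read from them.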

How the data were processed

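Single-cell Smart-seq2 libraries of 2031 sorted cells were made from 4 suspensions. The deposited values are whole-number counts of reads per gene and cell. The authors aligned reads with STAR 2.5.2b to GRCm38 with 92 ERCC spike-ins and counted them with HTSeq 0.6.1p1, after FastQC 0.11.4 and Samtools 1.4. The ERCC rows were left out of library sizes. In 32 columns of the series-wide table the counts of the 9 members equalled those of the cells they name, other genes were not compared, and 1998 columns were not used. 1 cell had no file, 33 cells of 1C were not in the study's list of types, and 15 cells had no type. Doublets were not called, since each well received 1 sorted cell.

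Counts were summed over the cells of a suspension (at least 5 cells) and tested with edgeR 4.0.16 (TMM, filterByExpr, quasi-likelihood, Benjamini-Hochberg, threshold 0.05). The study tested cells, which are not replicates. DESeq2 1.42.0, limma 3.58.1, other size factors, no filter, thinning to 50000 counts, the replicate block and leaving out each suspension were alternatives. Levels are CPM of summed counts and log2(CPM + 1), and fold values on that scale understate low genes. The code was tested on simulated data with larger changes and less spread between suspensions than seen here. That test does not show whether changes of the size seen could be called.

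The members and gene lists were chosen with earlier results of these data known. Named besides the members were paralogs, called list genes and the 3 genes most like each member. The list genes Hepacam, Cadm1, Dag1, Mdga2, Ptprs, Ptprd, Cbln1, Cbln2 and Cbln4 were named after their values were seen. Suspensions with the same number come from different litters.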

Additional observations from a re-analysis of the deposited data

Results flagged for a closer look

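Lrtm2 differed in direction between subtypes. From cortex to hippocampus the log2 ratio of mean CPM + 1 was −0.45 in AST1 cells and 0.82 in AST3 cells, with both hippocampal suspensions below both cortical ones in AST1 and above them in AST3. The difference between the subtypes was not tested, and AST1 and AST3 were themselves defined on the same counts.

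Unc13c gave values of opposite sign in the areas, although a lower level in hippocampal AST2 was not shown. AST2 exceeded the mean of AST1 and AST3 on the log2(CPM + 1) scale by 2.23 in 1C and 1.46 in 2C, whereas the value was −2.42 in 1H and −2.37 in 2H. The hippocampal AST2 sums held 10 and 22 cells and no count of Unc13c, so that the hippocampal values depend on the pseudocount and are no bound. The limits of 30% and 13.6% of cells that these counts of 0 allow lie above the shares in AST1 and AST3 of the same suspensions, which were 4.06% and 6.15% in 1H and 4.01% and 2.44% in 2H. This difference was not tested either.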

How the results depend on the processing

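Of the 270 values of members in the region comparisons under all alternatives, 15 passed the threshold, 10 of them by DESeq2, 2 on thinning and 3 by limma, and 31 changed sign, none of them past the threshold. In AST1 the sign changed for Slitrk2 (0.018) and Ntm (0.010) with no filter, for Nlgn2 (−0.263), Slitrk2 (0.061) and Ntm (0.092) on thinning, and for Nlgn2 (−0.044) and Ntm (0.317) by limma. In AST3 it changed for Nrxn2 and Ntm with other size factors (0.037 and 0.0082) and by DESeq2 (0.037 and 0.0082), and for Ntm on thinning (0.0043) and by limma (0.064). Leaving out a suspension changed it for Nlgn2 (−0.25 to 0.60), Nlgn3 (−0.28 to 0.12) and Ntm (−0.179 to 0.019) over all astrocytes, for Nlgn2 (−0.063 to 0.961), Nlgn3 (−0.635 to 0.660), Slitrk2 (−0.303 to 0.377) and Ntm (−0.297 to 0.346) in AST1, and for Nrxn2 (−1.35 to 0.69) and Ntm (−0.107 to 0.066) in AST3. EdgeR called 0 genes in all 3 comparisons, and 0 with other size factors, with no filter and without each suspension in turn (0 to 0). DESeq2 called 9.7% of genes over all astrocytes, 17.5% in AST1 and 13.8% in AST3. Thinning each cell to 50000 counts gave 1.46% of 14926 genes over all astrocytes, and limma on the mean log2(CPM + 1) over cells, an alternative chosen after seeing the data, 2.64% over all astrocytes and 0.00668% in AST3. The cause was not tested.

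Suspension numbers are shared between the areas but mark different litters, and the deviations of 1C and 1H from their region means had a correlation of −0.0154 over 19160 genes. With the suspension number as replicate block 0 genes were called, so that the pairing changed no call, although the values of Nlgn3 (0.0045), Slitrk2 (0.035) and Ntm (0.015) in AST1 changed sign under the block.

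The level of AST2 against AST1 and AST3, a mean over 4 suspensions, changed sign in sums of at least 20 cells for Nrxn2 (0.63), Nlgn1 (0.21) and Unc13c (0.44). That of Unc13c also did with a pseudocount of 10 (0.45) and as a mean over cells (0.64). Leaving out a suspension gave −1.28 to 0.63 for Nrxn2, −1.06 to 0.21 for Nlgn1, −1.11 to 0.44 for Unc13c and −0.025 to 0.021 for Ntm. The hippocampal AST2 sums hold 10 and 22 cells, which limits these values. Depth limits the share of cells with a count, which fell from 92.03% to 61.99% for Ntm on thinning.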
